A study of Mus musculus with 12 samples.

Results

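Transcripts of 8 genes were followed across WT and cGAS-/- macrophages: 3 genes of the SP100 family of nuclear proteins (Sp100, Sp110 and Sp140) and 5 genes for other large proteins that interferon is known to induce (Samd9l, Rnf213, Herc6, Nlrc5 and Parp12). They were taken by symbol from the deposited table. All 8 were found among its 38739 symbols, and all 8 were among the 11887 genes that were tested. The samples were 12 RNA-seq libraries of bone marrow-derived macrophages (BMDMs), in 4 groups of 3, where WT or cGAS-/- cells were left untreated (UT) or given LPS. UT cells received medium alone, and LPS was from E. coli. The mice were C57BL/6J, and the knockout is of cGAS itself in the whole animal, on that background. By the methods of the study the WT mice were bought from a supplier and the cGAS-/- mice came from another laboratory. Genotype and colony of origin can therefore not be told apart in any comparison of WT with cGAS-/- cells. The sample labels give 100 ng/mL of LPS for 1 h and name neutrophils in the extraction step, whereas the methods of the study give a higher dose for 24 h, so the time of exposure is uncertain. The samples of a group are called technical replicates in a legend of the study, so the p-values here measure the spread between these samples, which need not be the spread between mice.

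LPS is a ligand of TLR4, which drives the interferon-β gene through IRF3. Secreted interferon then acts back on the macrophage through its receptor and a transcription complex that binds the interferon-stimulated response element of its target genes. cGAS is a sensor of cytosolic DNA that feeds the same interferon-β gene by way of STING, so its loss can be read at genes downstream of interferon. The SP100 family holds chromatin readers with a SAND domain, of which Sp100 is a constituent of PML nuclear bodies, while several of the other proteins act on viral RNA, ubiquitin or antigen presentation.

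Values are TPM, the abundance of a transcript per length relative to all transcripts of the sample, averaged over the transcripts of a symbol, so a gene is compared between conditions and not ranked against another gene. Differences are given on the log2(TPM + 1) scale, which understates the change of low genes, from limma fitted to all 12 samples, and a gene passed at a Benjamini-Hochberg adjusted p under 0.05 over all genes tested. Read depth is not known from these values. In RNA from a whole culture, fewer cells of a type and less RNA per cell cannot be told apart. Column sums were 447189 to 503156 TPM in 11 libraries. WT LPS replicate 3 stood apart with 709802, and in it the pseudogene Fth-ps3 took 31.7% of the sum and protein-coding genes 18.5%. Fth-ps3 was the highest gene of every library. In the other 11 it took 6.24% to 17.7% of the sum, and protein-coding genes took 39.7% to 54.4%. The targeted gene, Cgas, ranged from 1.19 to 3.25 TPM in WT libraries, and no cGAS-/- library was above 0.29 TPM. Of 12 macrophage markers 9 are listed, and they summed to between 17148 and 34439 TPM, most of it Lyz2. The 10 neutrophil markers summed to between 85.8 and 403 TPM, the 10 T and NK cell markers to at most 2.46 TPM and the 5 dendritic cell markers to at most 2.23 TPM.

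In GRCm39 (GENCODE vM39) the SP100 family genes are neighbours on chromosome 1. Sp110 (85498456 to 85526604, minus strand) is followed after 1494 bases by Sp140 (85528099 to 85572758, plus strand) and, after a further 4950 bases, by Sp100 (85577709 to 85637719, plus strand). Chromosome 6 carries Samd9l (3372257 to 3405056, minus strand), Parp12 (39063342 to 39095573, minus strand) and Herc6 (57557932 to 57642597, plus strand). Nlrc5 is on chromosome 8 (95160984 to 95253900, plus strand) and Rnf213 on chromosome 11 (119283926 to 119378244, plus strand). All 8 are protein-coding. Their canonical transcripts run from 1970 bases in 12 exons for Sp110 to 16716 bases in 67 exons for Rnf213.

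The promoter sequences are shown because the 8 genes are known interferon targets. RefSeq windows of 300 bases (GRCm38.p6, 250 before a transcription start and 50 after it) were matched for 7 of the 8 genes, Nlrc5 being the one without a match, and gave 9 windows, since Sp100 and Sp110 have 2 starts each. The core of the interferon-stimulated response element, searched on both strands as GAAA, any 2 bases, GAAA, was found in 0 of the 9 windows and in 3.44% of all 32851 windows. A STAT site, searched as TTC, any 3 bases, GAA, which reads the same way on both strands, was in 0 of 9 and in 8.30% of all windows. The kappa B consensus was in 1 of 9, that of Rnf213, and in 4.51% of all windows. After the sequences had been read, the same GAAA pair with 3 bases between was searched as well (TTTC pairs on the other strand), and it was in 4 of the 9 windows, of Sp100, Sp110 and Samd9l, and in 2.75% of all windows. The 2 windows of Sp100 overlap and hold the same match, so these are 3 matches in 3 of the 7 genes, for a pattern picked with these sequences in view. None of these searches covers more than the window, and a match is a run of letters, not a bound site. The 30 bases around each GAAA pair, which is in capitals, are given on the strand of the gene, and those of Sp110 and Samd9l lie just after the start.
Sp100, chr1:85649931-85649960, plus strand: agagaattacTTTCGTTTTTCttttcccca
Sp110, chr1:85598782-85598811, minus strand: ctgagatcacTTTCATTTTTCttttcttga
Samd9l, chr6:3399522-3399551, minus strand: gtatcagaatcGAAACTGGAAActgaagca
The Sp100 match begins 47 bases before one start of the gene and 73 before the other. Sp100 and Sp110 share a run of 11 identical bases there.

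The 250 bases before the Sp100 start nearer to that match (GRCm38.p6, chr1:85649738-85649987, plus strand) show it in its setting.
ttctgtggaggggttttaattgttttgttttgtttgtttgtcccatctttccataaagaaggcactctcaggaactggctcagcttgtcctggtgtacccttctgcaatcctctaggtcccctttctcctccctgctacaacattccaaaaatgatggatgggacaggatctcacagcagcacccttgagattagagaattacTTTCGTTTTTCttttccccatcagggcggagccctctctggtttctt
For Rnf213, the one of the 8 genes with the largest LPS difference in cGAS-/- cells, the window of 300 bases has 67% G and C against a median of 52.7% over all windows. The 250 bases before its start are given (GRCm38.p6, chr11:119389849-119390098, plus strand), and the kappa B match, in capitals, begins 77 bases before the start.
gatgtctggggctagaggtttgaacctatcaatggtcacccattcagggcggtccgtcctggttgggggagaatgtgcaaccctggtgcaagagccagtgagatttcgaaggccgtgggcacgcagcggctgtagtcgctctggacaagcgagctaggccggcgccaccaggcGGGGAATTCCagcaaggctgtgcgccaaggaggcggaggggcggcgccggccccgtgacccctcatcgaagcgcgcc

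How far reads can be assigned to one gene differed among the 8. Matches of at least 150 bases at 90% identity or more to transcripts of other genes covered 99.8% of the canonical Sp110 transcript and 100% of that of Sp140, in 19 and 18 other genes, and most of those with a value are pseudogenes or non-coding genes on chromosome 1. Such matches covered 16.9% of Sp100, 21.9% of Herc6 (at 100% identity to Gm45193, a non-coding gene that overlaps it on the same strand) and 5.33% of Samd9l. For Rnf213, Nlrc5 and Parp12 there were 0 such genes. The levels of Sp110 and Sp140 are therefore uncertain, since the authors' quantification could have split reads between copies. Antisense non-coding genes overlap 7 of the 8 genes, all but Samd9l, and those with a value reached at most 8.59 TPM (4930599N23Rik, which shares 267 bases of span with Parp12).

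LPS went with the largest differences in these genes. In cGAS-/- cells all 8 rose, against 4.76% of all genes tested that rose, and 4 of them also passed a log2 difference of 2, against 1.94% of all genes. The 3 LPS samples lay above the 3 UT samples at 8 of 8 genes, as they did at 15.5% of genes tested. In WT cells 6 of 8 rose, against 4.31% of all genes tested, and 1 of them, Herc6, was past a difference of 2 as well, against 1.43%. The median difference of the 8 was 1.93 in cGAS-/- cells, where that of all genes tested was −0.20, and 1.59 in WT cells, where that of all genes was −0.46. In WT cells 6 of 8 genes had every LPS sample above every UT sample, against 5.31% of genes tested. The plot of levels by sample shows these values.

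**Figure D1:**
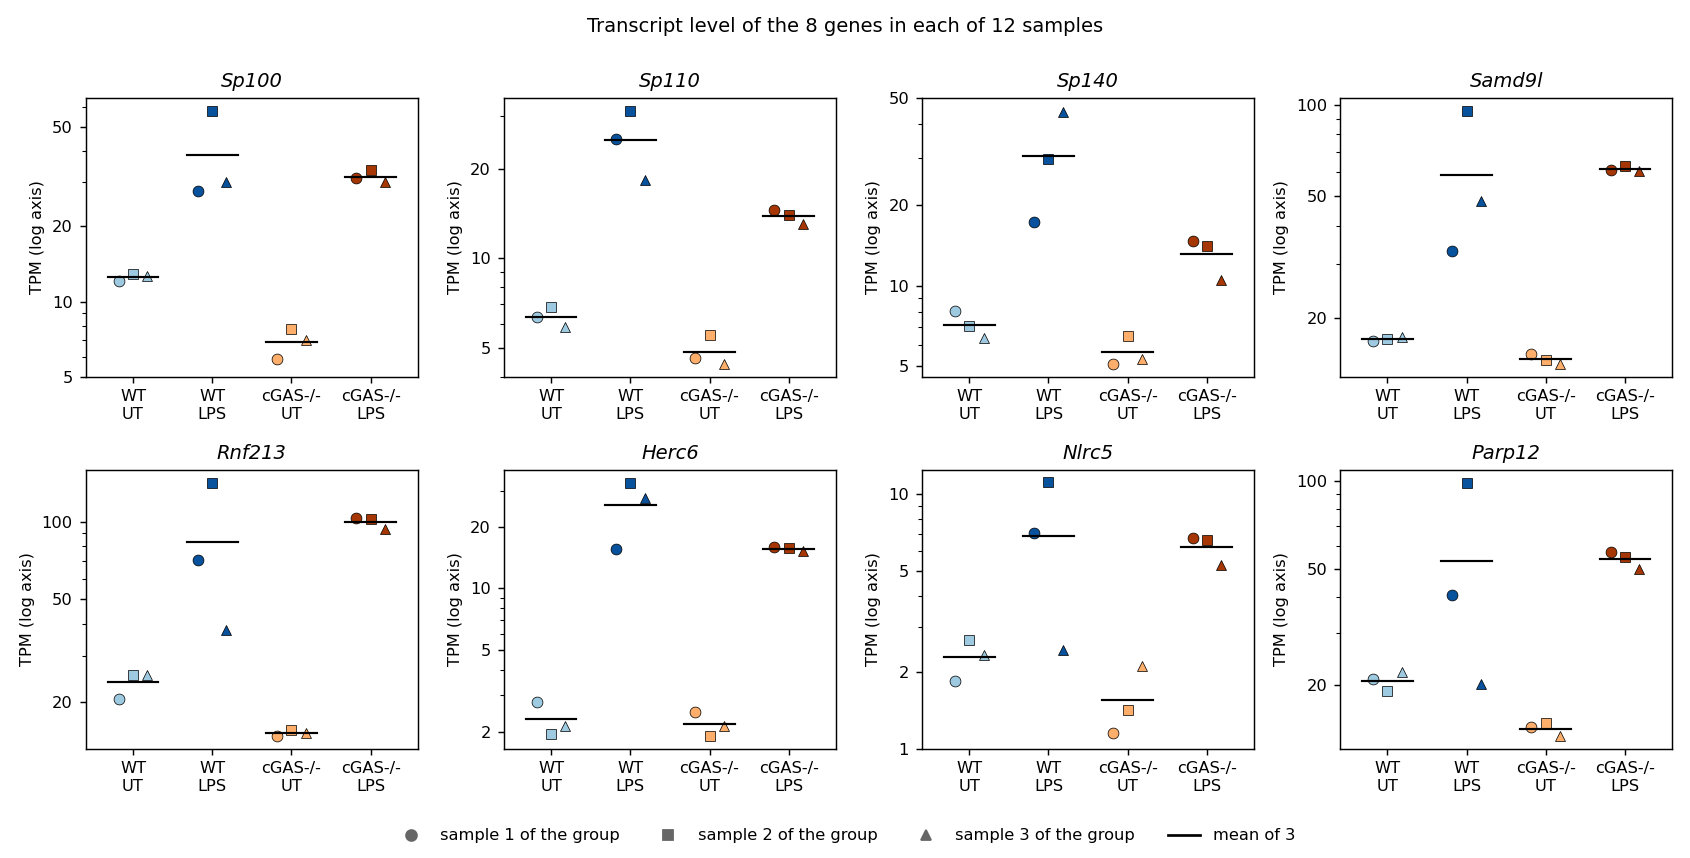
TPM of each of the 8 genes in the 12 samples on a log axis, with 1 panel per gene, 1 symbol per sample and a line at the mean of each group of 3. LPS samples lie above UT samples of the same genotype everywhere except for Nlrc5 and Parp12 in WT cells, where WT LPS replicate 3 (2.44 and 20.1 TPM) is among the UT samples.

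Sp100, the nuclear body protein that restrains incoming viral genomes, was at 12.1, 12.9 and 12.7 TPM in WT UT samples and at 27.7, 58.1 and 30.1 TPM in WT LPS samples. It was at 5.87, 7.76 and 7.04 TPM in cGAS-/- UT samples and at 31.1, 33.6 and 30.2 TPM with LPS. The LPS samples were thus high in both genotypes, the 4 ranges being apart except between the LPS groups, and WT LPS replicate 2 was the highest of all. Sp100 rose by 1.47 (standard error 0.278, limma adjusted p = 0.00333) in WT and by 2.05 (standard error 0.278, limma adjusted p = 0.000477) in cGAS-/- cells.

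Sp110, a family member known from a mouse locus that sets susceptibility to tuberculosis, was at 6.37, 6.88 and 5.86 TPM in WT UT samples and at 25.2, 31.3 and 18.3 TPM in WT LPS samples. In cGAS-/- samples it went from 4.60, 5.51 and 4.40 TPM to 14.6, 13.99 and 13.1 TPM. Here the 3 cGAS-/- LPS samples were all below the 3 WT LPS samples. The rise was 1.79 (standard error 0.227, limma adjusted p = 0.000268) in WT and 1.35 (standard error 0.227, limma adjusted p = 0.00204) in cGAS-/- cells.

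Sp140, a chromatin reader of immune cells from the same locus, was at 8.01, 7.08 and 6.37 TPM in WT UT samples and at 17.3, 29.6 and 44.5 TPM in WT LPS samples. It was at 5.09, 6.51 and 5.32 TPM in cGAS-/- UT samples and at 14.6, 14.1 and 10.5 TPM with LPS. As for Sp110, the LPS samples of the 2 genotypes did not overlap, with cGAS-/- below. It rose by 1.86 in WT cells (standard error 0.309, limma adjusted p = 0.0015). In cGAS-/- cells it rose by 1.08 (standard error 0.309, limma adjusted p = 0.0404), a call that stood in 11 of 23 alternative settings, with adjusted p from 6.45e-05 to 0.147.

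Among the cytoplasmic proteins, Samd9l, an antiviral factor that also restrains growth and translation, was at 16.8, 17.0 and 17.2 TPM in WT UT samples and at 33.1, 95.5 and 48.3 TPM in WT LPS samples. The cGAS-/- samples were at 15.2, 14.6 and 14.1 TPM without and at 61.3, 63.0 and 60.7 TPM with LPS, so that the WT LPS samples lay on both sides of a tight cGAS-/- group. It rose by 1.60 (standard error 0.324, limma adjusted p = 0.00491) in WT and by 2.01 (standard error 0.324, limma adjusted p = 0.00159) in cGAS-/- cells.

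Rnf213, a giant ubiquitin ligase with an ATPase core that coats bacteria in the cytosol, was at 20.6, 25.5 and 25.4 TPM in WT UT samples and at 70.8, 142 and 38.0 TPM in WT LPS samples. It was at 14.7, 15.5 and 15.1 TPM in cGAS-/- UT samples and at 104, 102 and 93.7 TPM with LPS. Replicates 2 and 3 of the WT LPS group were the highest and the lowest of the 6 LPS samples. Rnf213 rose by 1.58 (standard error 0.381, limma adjusted p = 0.0121) in WT and by 2.64 (standard error 0.381, limma adjusted p = 0.000762) in cGAS-/- cells, the latter being the largest difference of the 8 there.

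Parp12, an ADP-ribosyltransferase with antiviral zinc fingers, was at 20.9, 19.0 and 22.0 TPM in WT UT samples and at 40.7, 98.8 and 20.1 TPM in WT LPS samples. In cGAS-/- samples it was at 14.3, 14.7 and 13.3 TPM without and at 57.0, 54.8 and 49.7 TPM with LPS. WT LPS replicate 3 lay inside the range of the WT UT samples. The difference in WT cells, 1.04 (standard error 0.436), did not pass (limma adjusted p = 0.095), and without that replicate it was 1.58 with an adjusted p of 0.00222, the range over all alternatives being 0.00177 to 0.302. In cGAS-/- cells Parp12 rose by 1.86 (standard error 0.436, limma adjusted p = 0.0152).

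Herc6, the main ligase that attaches the ubiquitin-like ISG15 to proteins in mice, was at 2.79, 1.95 and 2.13 TPM in WT UT samples and at 15.6, 32.9 and 27.8 TPM in WT LPS samples. It went from 2.49, 1.91 and 2.12 TPM to 15.9, 15.7 and 15.3 TPM in cGAS-/- samples. The UT groups overlapped, and every LPS sample stood far above both. Its rise was the largest of the 8 in WT cells, at 2.95 (standard error 0.264, limma adjusted p = 2.46e-05), and was 2.39 (standard error 0.264, limma adjusted p = 0.000113) in cGAS-/- cells. Gm45193, which shares part of its sequence, was at 17.5 TPM in WT LPS replicate 3 and at no more than 3.61 TPM in any other sample.

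Nlrc5, the transactivator of MHC class I genes, was in cGAS-/- UT samples at 1.15, 1.42 and 2.11 TPM, and was at 6.71, 6.62 and 5.27 TPM with LPS. In WT samples it was at 1.85, 2.68 and 2.34 TPM without and at 7.06, 11.1 and 2.44 TPM with LPS. WT LPS replicate 3 again lay within the UT range. Nlrc5 rose by 1.504 (standard error 0.38, limma adjusted p = 0.0221) in cGAS-/- cells, while the 1.09 in WT cells (standard error 0.38) did not pass (limma adjusted p = 0.0535) and was 1.597 with an adjusted p of 0.000447 without that replicate. Over all alternatives its adjusted p in WT cells ran from 0.000447 to 0.224.

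The count in WT cells was 8 of 8 without WT LPS replicate 3, where 8.26% of all genes tested rose. It was 6 of 8 without WT LPS replicate 1 or 2, where 5.73% and 5.58% of all genes rose. From the 6 WT samples alone it was 2, Sp110 and Herc6, against 1.4% of all genes. In cGAS-/- cells the count was 5 without cGAS-/- UT replicate 1, without cGAS-/- LPS replicate 1 or without cGAS-/- LPS replicate 2, where 3.27%, 3.2% and 3.44% of all genes rose. The genes lost were then Sp140, Nlrc5 and Parp12, while Sp100, Sp110, Samd9l, Rnf213 and Herc6 passed in all 23 alternative settings.

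Within the WT LPS group the 8 genes did not vary as a block. Set against the mean of the other WT LPS samples on the log2 scale, replicate 3 was below the median of all genes tested (−0.54) at Parp12 (−1.61), Nlrc5 (−1.53), Rnf213 (−1.37) and Sp110 (−0.59). It was higher at Sp140 (0.94) and Herc6 (0.28), and Sp100 (−0.41) and Samd9l (−0.22) were in between. Among protein-coding genes the median of this difference ran from −1.13 in the fifth with the shortest transcripts to −0.56 in the fifth with the longest, and its part in these values was not tested.

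**Figure D2:**
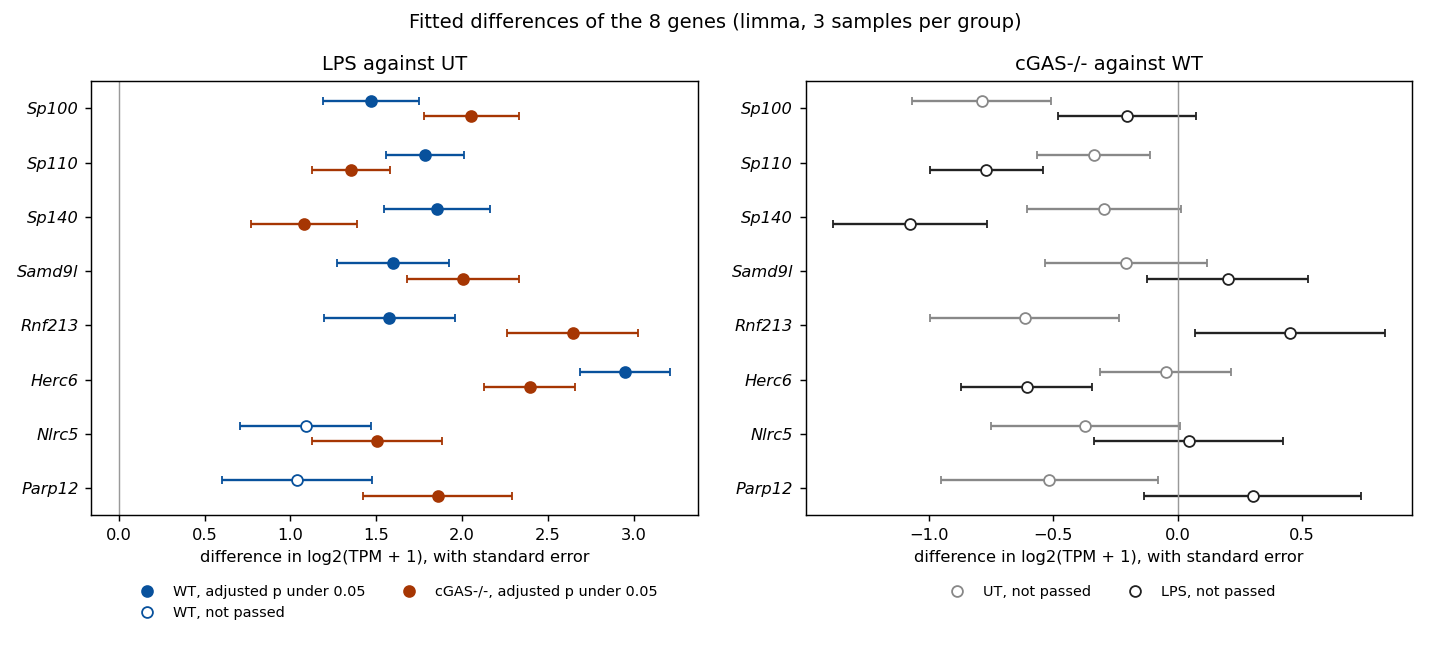
Fitted difference in log2(TPM + 1) with its standard error for each gene, LPS against UT on the left (blue WT, brown cGAS-/-) and cGAS-/- against WT on the right (grey UT, black LPS), with filled points where the adjusted p was under 0.05. Filled points are found only among the LPS effects, 6 in WT and 8 in cGAS-/- cells, while the genotype differences run from −1.08 for Sp140 to 0.45 for Rnf213 with LPS.

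In UT cells all 8 genes had lower fitted levels in cGAS-/- than in WT, from −0.05 for Herc6 to −0.79 for Sp100, and 0 of 8 passed, where 1.58% of all genes tested were lower by the same rule. The sign of Herc6 turned under TMM or quantile scaling, without cGAS-/- UT replicate 2 and without WT UT replicate 1. At an unadjusted p under 0.05, limma gave 1 of the 8, Sp100, and 8.08% of all genes tested. Every cGAS-/- sample was lower than every WT sample at 5 of 8 genes, Sp100, Sp110, Samd9l, Rnf213 and Parp12, whereas 18.4% of genes tested showed this order. The median of the 8 was −0.36 against −0.04 for all genes.

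Sp100 had the widest gap at rest, with mean levels of 6.89 ± 0.952 TPM (SD, n = 3) in cGAS-/- and 12.6 ± 0.446 TPM in WT cells, a difference of −0.79 (standard error 0.278, limma adjusted p = 0.335). Rnf213 was at 15.1 ± 0.362 and 23.8 ± 2.80 TPM, a difference of −0.62 (standard error 0.381, limma adjusted p = 0.962). For Parp12 the means were 14.1 ± 0.718 and 20.6 ± 1.54 TPM, with a difference of −0.52 (standard error 0.436, limma adjusted p = 1). The UT samples were far tighter than the WT LPS samples, which enter the common estimate of spread. From the 6 UT samples alone 3 of the 8 passed as lower (Sp100, Rnf213 and Parp12), where 7.07% of all genes tested did. With sample weights 4 passed (these and Sp110), against 8.03% of all genes, and without WT LPS replicate 2 only Sp100 did, against 2.35%. Over all alternatives the adjusted p of Sp100 ran from 0.000983 to 0.838. The 8 B cell markers summed to between 110 and 135 TPM in WT UT and to between 20.4 and 29.3 TPM in cGAS-/- UT samples, none of the 8 being at 0 in every sample of a group. Lower in cGAS-/- UT samples without overlap were also the summed neutrophil markers (85.8 to 157 against 173 to 243 TPM, 1 of 10 at 0 in the cGAS-/- samples), the 7 fibroblast markers (2.12 to 3.97 against 7.54 to 9.58 TPM, 0 of 7 at 0) and the T and NK cell markers (0.723 to 1.17 against 1.64 to 2.46 TPM, 3 of 10 at 0). Mean levels were lower in cGAS-/- UT samples at 6 of 8 B cell, 9 of 10 neutrophil and 7 of 7 fibroblast markers, but at 6 of 10 T and NK cell markers, with the widest gap at Lat and with Cd3d, Cd3g, Cd8a and Cd2 on the higher side. The macrophage markers were higher in cGAS-/- than in WT samples without overlap, at 20791 to 22666 against 17510 to 18285 TPM in UT and at 33972 to 34439 against 17148 to 26936 TPM with LPS, a difference set by Lyz2, since 5 of the 9 had lower means in cGAS-/- UT and 6 of the 9 in cGAS-/- LPS samples. The part of these 5 lists in the differences was not tested.

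With LPS, 0 of 8 passed between genotypes, against 1.00% of all genes tested that were lower and 1.36% that were higher in cGAS-/- cells. At an unadjusted p under 0.05 limma gave 3 of the 8, Sp110, Sp140 and Herc6, and 18.8% of all genes tested. The 8 fell on both sides of 0. Sp140 (−1.08), Sp110 (−0.77), Herc6 (−0.61) and Sp100 (−0.20) were on the lower side, although Sp100 was at 0.12 without WT LPS replicate 2. Rnf213 (0.45), Parp12 (0.30), Samd9l (0.20) and Nlrc5 (0.04) were on the higher side. The sign of Samd9l turned under TMM scaling and without WT LPS replicate 1, that of Nlrc5 under TMM and quantile scaling among other settings, and those of Rnf213, Parp12 and Nlrc5 without WT LPS replicate 3.

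Only Sp110 and Sp140 had all 3 cGAS-/- LPS samples below the WT LPS samples, 2 of 8 genes against 5.17% of genes tested. With LPS, Sp110 averaged 13.9 ± 0.762 TPM in cGAS-/- cells (SD, n = 3) against 24.9 ± 6.52 TPM in WT cells (standard error of the difference 0.227, limma adjusted p = 0.122). Sp140 was at 13.1 ± 2.23 and 30.5 ± 13.6 TPM (standard error of the difference 0.309, limma adjusted p = 0.115). Single WT LPS samples decided the calls. Without replicate 1, Sp140 and Herc6 passed as lower, where 1.73% of all genes tested did. Without replicate 2, Sp110 and Sp140 passed as lower, where 3.98% of all genes did, and Samd9l, Rnf213 and Parp12 as higher, where 23.9% of all genes did. Without replicate 3, Sp110 passed as lower, where 4.44% of all genes did, as it did under TMM (1.61%) and quantile scaling (1.86%). The adjusted p over all alternatives ran from 0.00231 to 0.658 for Sp110 and from 0.0173 to 0.658 for Sp140. The B cell markers were lower in cGAS-/- with LPS as well, at 3.35 to 9.32 TPM against 30.9 to 46 TPM in WT cells, as were the fibroblast markers, at 2.98 to 4.003 TPM against 6.05 to 17.2 TPM, and, by a narrow gap, the dendritic cell markers, at 0.831 to 1.307 against 1.3096 to 2.23 TPM, where the widest gap was at Xcr1 and the means of Ccr7 and Siglech were higher in cGAS-/- samples. The part of these 3 lists was not tested.

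The LPS effects of the genotypes were also set against each other in one term. Of the 8 genes 0 passed, against 0.732% of all genes with a larger effect in cGAS-/- cells and 0.168% with a smaller one. At an unadjusted p under 0.05 limma gave 0 of the 8 and 11.1% of all genes tested. The term ran from −0.78 (standard error 0.437) for Sp140 to 1.07 (standard error 0.539, limma adjusted p = 0.505) for Rnf213, and its median over the 8 was 0.41 against 0.27 for all genes. Without WT LPS replicate 2, Sp100, Rnf213 and Parp12 passed with larger effects in cGAS-/- cells, where 11.4% of all genes tested did.

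Ratios between genes of one sample do not depend on a scaling factor applied to the whole sample, and they were read as a description after the values had been seen. Sp110 over Sp100 was between 0.462 and 0.532 in WT UT and between 0.539 and 0.908 in WT LPS samples. In cGAS-/- samples it moved the other way, from between 0.626 and 0.784 in UT to between 0.417 and 0.469 with LPS. The order of the genotypes at this ratio was thus reversed between UT and LPS, with no overlap in either. The ratios share Sp100 as their base, which was itself lower in cGAS-/- UT samples, and 63% of genes tested had a ratio to Sp100 that was higher in every cGAS-/- UT than in every WT UT sample. With LPS 2.78% of genes had the opposite order, and 0.824% had both. Of the 7 members 3 had both, Sp110, Sp140 and Herc6, while the ratios of Nlrc5 overlapped between genotypes in UT and with LPS and those of Parp12 overlapped with LPS. Sp140 over Sp100 was at 0.501 to 0.664 in WT and 0.756 to 0.867 in cGAS-/- UT samples, and at 0.509 to 1.48 and 0.349 to 0.47 with LPS. Herc6 over Sp100 was at 0.151 to 0.231 and 0.246 to 0.423 in UT, and at 0.563 to 0.922 and 0.468 to 0.51 with LPS. Samd9l over Sp100 was between 1.19 and 1.64 in the 6 WT samples and between 1.88 and 2.58 in the 6 cGAS-/- samples. Rnf213 over Sp100 was highest in cGAS-/- LPS samples, between 3.05 and 3.33, while no other sample was above 2.55. The UT part of the Samd9l order is the one that 63% of genes tested had. The shares of all genes with the LPS orders of Samd9l and Rnf213 were not counted, so these orders are not a trait of the 2 genes.

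**Figure D3:**
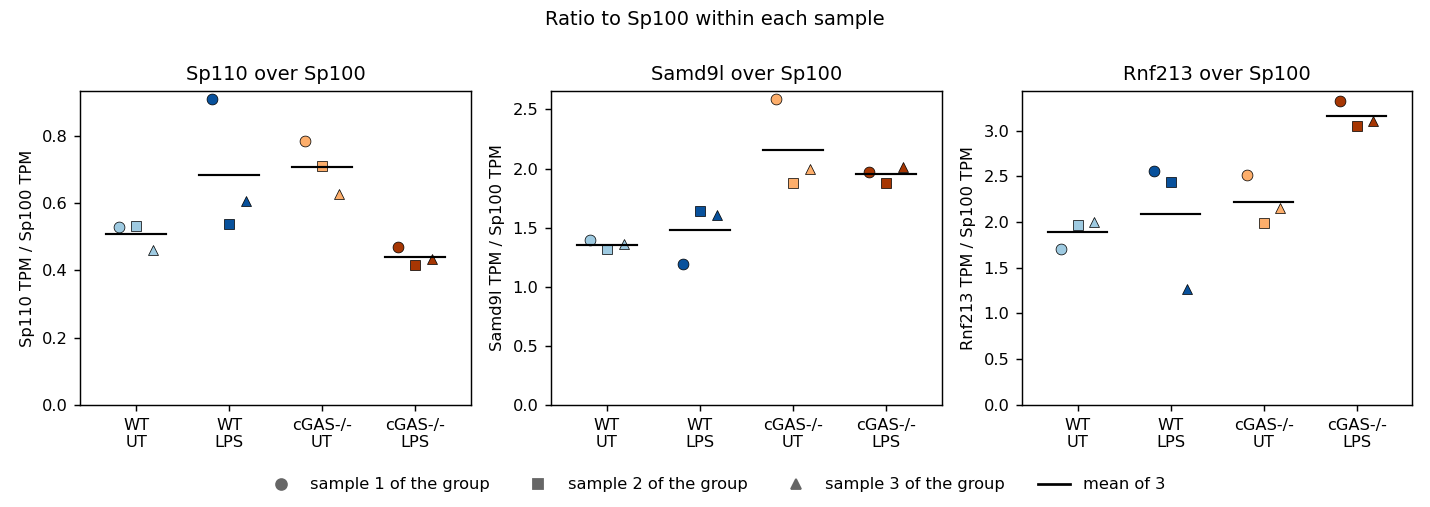
Ratio of TPM to that of Sp100 in each of the 12 samples for Sp110, Samd9l and Rnf213, on linear axes from 0, with 1 symbol per sample and a line at the mean of each group of 3. The Sp110 ratio of cGAS-/- samples is above that of WT samples in UT and below it with LPS, and the Samd9l ratio is higher in all 6 cGAS-/- samples. In UT, 63% of genes tested had a ratio to Sp100 that was higher in every cGAS-/- than in every WT sample.

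Because Sp110 and Sp140 share sequence with other genes, the listed genes that match a member were read as well. There were 16, chosen by sequence alone, and 10 of them were tested. Between genotypes with LPS only Gm7609 and A530040E14Rik of the 10 passed, both lower in cGAS-/- cells, where 1.00% of all genes tested were lower. Gm7609, a protein-coding gene of the same family stretch (chromosome 1, 85177317 to 85191515 of GRCm39) that matches 6.10% of the Sp100 transcript, was between 0 and 0.264 TPM in WT UT and at 15.7, 12.5 and 8.52 TPM in WT LPS samples. In cGAS-/- cells it was between 0 and 0.121 TPM without and at 0.474, 0.877 and 0.976 TPM with LPS. It rose by 3.55 in WT cells (standard error 0.221, limma adjusted p = 2.77e-06) and was lower by genotype with LPS, at −2.87 (standard error 0.221, limma adjusted p = 8.28e-05), although from the 6 LPS samples alone the adjusted p was 0.102. Gm52950 lies within the span of Gm7609 on the same strand and also matches 6.10% of Sp100, but its LPS samples overlapped between genotypes. They were at 0, 5.89 and 4.42 TPM in WT and at 0.662, 0.0806 and 0 TPM in cGAS-/- cells (difference −1.46, limma adjusted p = 0.215).

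A530040E14Rik, a non-coding gene that matches 19.6% of the Sp110 transcript and whose span (85080984 to 85254067) contains Gm7609 on the same strand, had 8.45, 11.6 and 5.89 TPM in WT LPS samples and 1.17, 0.924 and 0.632 TPM in cGAS-/- LPS samples. The genotype difference with LPS was −2.30 (standard error 0.23, limma adjusted p = 0.000491), again without a call from the 6 LPS samples alone (adjusted p = 0.136). Reads of these overlapping genes may be shared, so they are not separate evidence. The Sp140 copy with the highest level, Gm5831, a processed pseudogene on chromosome 9 that matches 44.8% of Sp140, had medians of 2.39 TPM in WT LPS and 1.87 TPM in cGAS-/- LPS samples. Gm20559, near Samd9l on chromosome 6 and matching 5.33% of it, rose by 2.16 in WT and by 2.79 in cGAS-/- cells (limma adjusted p = 0.000405 and 8.14e-05). Its cGAS-/- samples were above the WT samples without overlap, at 4.18 to 5.05 against 2.75 to 3.62 TPM in UT and at 37.9 to 39.4 against 12.4 to 29.1 TPM with LPS. These differences, 0.497 and 1.13, did not pass (limma adjusted p = 0.913 and 0.0825).

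**Figure D4:**
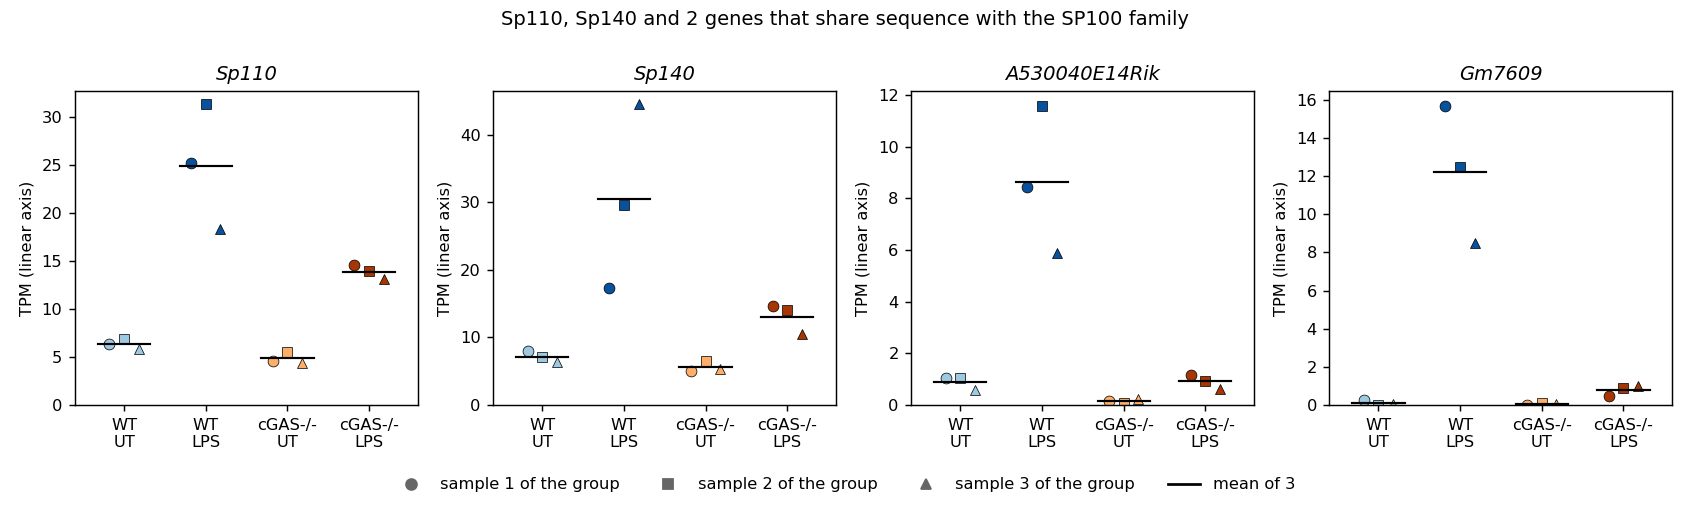
TPM of Sp110 and Sp140 and of A530040E14Rik and Gm7609, which share sequence with the SP100 family, in the 12 samples on linear axes from 0, with a line at the mean of each group of 3. The 3 cGAS-/- LPS samples lie below the 3 WT LPS samples in all 4 panels, at no more than 1.17 TPM for A530040E14Rik and 0.976 TPM for Gm7609.

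The levels of the 8 genes followed one another closely across the 12 samples, which share libraries and treatment. Pearson's r between pairs ran from 0.60 for Sp140 and Parp12 to 0.97 for Rnf213 and Parp12, and from 0.88 to 0.99 over the 11 samples without WT LPS replicate 3. Among all other genes tested, the 5 most like the mean of the 8 over 12 samples were Stat2 (r = 0.997), a subunit of the interferon-activated transcription complex, the guanylate-binding proteins Gbp7 (0.994) and Gbp2 (0.990), the antiviral enzyme Rsad2 (0.993) and the immunity-related GTPase Irgm2 (0.993). Without WT LPS replicate 3 Stat2 was still the most alike, at r = 0.998, and Gbp7 ranked 3, while Irgm2, Rsad2 and Gbp2 ranked 7, 10 and 19. The mean log2(TPM + 1) of the 8 was 3.28 to 3.31 in WT UT, 2.84 to 2.94 in cGAS-/- UT, 4.58 to 5.61 in WT LPS and 4.64 to 4.81 in cGAS-/- LPS samples.

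Other interferon-stimulated genes gave the setting. Of 69 tested from a written list without the 8, 58 rose with LPS in cGAS-/- cells with a median of 2.49, and 56 rose in WT cells with a median of 2.10, where 1 (Ifi30) fell. The median of the 8 was below that of the list in both genotypes. The 3 largest rises in WT cells were those of the chemokine Ccl5 (8.36), Slfn1 (6.12) and the chemokine Cxcl10 (5.97). Between genotypes in UT cells 3 of the 69 were lower in cGAS-/- (Ifi27l2a, Slfn1 and Ifi47) with a median of −0.42 over the list, and with LPS 4 were lower, Cxcl10 (−1.43) and Igtp (−1.40) leading, with a median of −0.23. Of 23 alternative settings, the UT calls of Ifi27l2a, Slfn1 and Ifi47 stood in 11, 13 and 10, with adjusted p up to 0.147, 0.242 and 0.182. With LPS the call of Cxcl10 stood in 21 (adjusted p up to 0.29) and that of Igtp in 9 (up to 0.505).

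On the input side, 6 of 13 genes rose with LPS in each genotype, among them Socs3, a feedback inhibitor, and Irf7, the amplifier of interferon transcription, and 1 fell in WT cells (Ifngr1), where 23.3% of all genes tested fell. Ifnb1, the interferon-β gene itself, was at 8.41 TPM on average in WT and at 3.08 TPM in cGAS-/- cells with LPS, a difference of −1.20 (standard error 0.178, limma adjusted p = 0.00597). That call stood in 20 of 23 alternative settings, with adjusted p up to 0.356.

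Of 12 genes of the PML nuclear body, where Sp100 resides, only Pml, its scaffold, rose with LPS, by 2.01 in WT (limma adjusted p = 0.000546) and by 1.16 in cGAS-/- cells (limma adjusted p = 0.0185, passing in 15 of 23 alternative settings), and 3 fell in WT cells (Nbn, Hipk2 and Blm), near the 23.3% of all genes tested that fell there. The call of Nbn stood in 7 of 23 alternative settings. Pml was also lower in cGAS-/- than in WT with LPS, at a difference of −1.25 (standard error 0.284, limma adjusted p = 0.0472), where its mean TPM was 0.342 times that of WT. That call stood in 7 of 23 settings, with adjusted p up to 0.55. A list of 14 genes linked to MHC class I presentation, which Nlrc5 is known to control in part, was also read. It held B2m, Psmb10 and Tapbpl beside chaperones and RFX and NFY factors. It had no classical class I heavy chain gene and no Tap1, Psmb8 or Psmb9, so it does not speak for those genes. Of the 14, 1 rose in each genotype, the light chain B2m (1.25 in WT and 1.39 in cGAS-/- cells), where 4.31% and 4.76% of all genes tested rose. In WT cells 3 fell (Ifi30, Pdia3 and Mr1), and 1 fell in cGAS-/- cells (Mr1). These falls were near the share of all genes tested that fell, 23.3% in WT and 9.06% in cGAS-/- cells, and the call of B2m stood in 18 of 23 settings in WT and 16 in cGAS-/- cells. In WT cells the call of Pdia3 stood in 7 of 23 and that of Mr1 in 5 of 22 settings.

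Other genes of the PARP, HERC, SAND domain and NLR families were read from written lists. These were not ordered by closeness to the 8 genes and lack Parp9, Parp10 and Parp14. Of the 22 tested, 4 rose and 3 fell with LPS in WT cells, where 4.31% and 23.3% of all genes tested did. In cGAS-/- cells 5 rose and 3 fell, against 4.76% and 9.06% of all genes. Of 8 other PARP genes, Parp3 and Parp11 rose and Parp1, the DNA repair enzyme, fell with LPS in both genotypes, although in cGAS-/- cells the calls of Parp3, Parp11 and Parp1 stood in 15, 9 and 17 of 23 settings. Of 4 other HERC genes and 3 other SAND domain genes 0 passed in limma with LPS in either genotype, with medians of −0.42 and −0.50 in WT cells. At an unadjusted p under 0.05 limma gave 1 of each in WT cells and 42.3% of all genes tested. In cGAS-/- cells it gave 0 HERC genes, 1 SAND domain gene and 24.9% of all genes. Of 7 other NLR genes, the inflammasome sensor Nlrp3 and the peptidoglycan sensor Nod1 rose and Nlrp1b and Nlrp10 fell in both genotypes, and Nod2 rose in cGAS-/- cells only by its own test, the difference between genotypes not passing. The call of Nod1 in WT cells stood in 15 of 23 settings and that of Nod2 in cGAS-/- cells in 14 of 22. Between genotypes 0 of the 22 genes of these 4 lists of relatives passed in limma. At an unadjusted p under 0.05 limma gave 1 of them in UT cells and 6 with LPS, against 8.08% and 18.8% of all genes tested.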

How the data were processed

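RNA-seq libraries of 12 BMDM samples were used, grouped by the sample labels. The authors used fastp, STAR with GRCm39 and kallisto, and tested groups by edgeR and limma. The unit of the deposited values, TPM averaged per symbol over transcripts, was inferred from the values. Depth is unknown, so no counting error is given, and averaging can hide a change in 1 transcript. Genes with at least 1 TPM in 3 of 12 samples, each rescaled to the same sum for this filter only, were kept. Limma 3.58.1 (R 4.3.3) was fitted to log2(TPM + 1) with a mean per group, a variance trend and a threshold of 0.05 on the adjusted p, and was tested on simulated data. Log2 differences past 2 were counted beside. Transcripts of GENCODE vM39 were compared by blastn 2.17.0. All 8 genes are named, with up to 3 rises and falls per list and the 5 genes most alike. The 8 genes, the lists and the motifs were chosen with earlier results of these data known. Alternatives were pseudocounts of 0.1 and 5, no filter or 5 TPM, TMM, quantile or total scaling, the 6 samples compared, a replicate block, no trend, sample weights and each sample left out. The genes that share sequence were added after seeing the data. One gene of a list is not reported here. The deposited table has 0 columns of no sample.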

Additional observations from a re-analysis of the deposited data

Results flagged for a closer look

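The LPS effect on Gm7609 differed between genotypes, with an interaction term of −2.81 on the log2 scale (standard error 0.312, limma adjusted p = 0.00201). It rose by 3.55 in WT cells, and the difference in cGAS-/- cells was 0.74 (limma adjusted p = 0.0473), a call that stood in 8 of 23 alternative settings, with adjusted p up to 0.381. The term kept its call in 21 of 22 alternative settings and lost it with a pseudocount of 0.1 (−3.57, adjusted p = 0.126), and adjusted p ran up to that value. For Gm52950, which lies within Gm7609, the term did not pass (−0.50, limma adjusted p = 0.80). Reads may be shared with other copies of the family, and their part was not tested.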

How the results depend on the processing

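Of the members that passed with LPS, the count in WT cells was 2 from the 6 samples compared and 5 to 8 otherwise, and in cGAS-/- cells it ran from 5 to 8 when each sample was left out. Between genotypes in UT cells it was 4 with sample weights, 3 from the 6 samples and 0 to 1 when a sample was left out. With LPS it was 1 with TMM factors, 1 with quantile normalization and 0 to 5 when a sample was left out, and for the difference of LPS effects 0 to 3. Scaling moved the median of all genes for LPS in WT cells from −0.46 to −0.11 (TMM factors), −0.03 (quantile normalization) or −0.61 (common total). Without WT LPS replicate 3, B2m and Ifi30 were lower in cGAS-/- than in WT with LPS, the opposite of their sign over all samples, and their differences ran from −0.49 to 0.34 and from −0.87 to 0.45 when a sample was left out. With the replicate block, 7 members passed with LPS in cGAS-/- cells, Sp140 being lost (adjusted p = 0.0713), and the counts of the other comparisons did not move. No label pairs the same-numbered samples of different groups. Their deviations correlated between −0.031 and 0.038, which cannot show whether they were prepared together. The cause of these changes was not tested. The unknown read depth and the spread of the WT LPS samples limit all comparisons that use them.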
